A study of Homo sapiens with 16 samples.

Results

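Cells pass from growth into DNA replication through a small set of cyclins, kinases, inhibitors and transcription factors, and the turnover of 10 of their mRNAs was examined here: CCND2, CCND3, CCNE1, CCNE2, CDK4, CDK2, CDKN1B, CDKN2C, E2F1 and E2F3. They were taken by gene symbol, and all 10 were found among 60564 genes in the table. Of these, 9 were among the 16241 genes that were tested, and CCND2 was not. The cells were THP-1, a human monocytic leukaemia line, in 2 genotypes: wild type, called control, and a knockdown of ALKBH5 (A5-KD in the labels), the enzyme that removes N6-methyladenosine (m6A) from RNA. All groups received 100 µM 4-thiouridine (4sU) as a pulse of 1 h and then 10 mM uridine as a chase, and polyadenylated RNA was taken at 0, 1.5, 4.5 and 7.5 h of chase. Each of the 8 groups had 2 libraries, 16 in all, from 1 cell line.

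In SLAM-seq, 4sU built into new RNA is read as T-to-C conversions. The value per gene and library is the conversion rate, the converted share of a gene's sequenced T bases, given in percent. It falls during the chase as labelled molecules are lost and as unlabelled ones are made, and it carries no information on how much of an mRNA is present. Nothing in the labels said that the 2 libraries of a group came from separate cultures, so p-values measure the spread between these libraries, which may be technical. The knockdown columns were assigned by elimination, since the table names the control columns by their initial and the remaining columns by another letter. Because a rate is not an abundance, the loss of ALKBH5 mRNA could not be checked: its rate ranged from 0.0982% to 0.812% in control libraries and from 0.108% to 3.31% in knockdown libraries.

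In early G1, cyclins D2 and D3 (CCND2, CCND3) bind the kinases CDK4 and CDK6 and begin to phosphorylate the retinoblastoma protein. Its phosphorylation frees E2F transcription factors, among them E2F1 and E2F3, which switch on genes of DNA replication and also CCNE1 and CCNE2. Cyclin E with CDK2 then completes the phosphorylation of the retinoblastoma protein, while p27 (CDKN1B) restrains cyclin-CDK2 and p18 (CDKN2C) binds CDK4 and CDK6. Several of these proteins are made and destroyed once per cell cycle, and the lifetime of the mRNA sets how quickly their synthesis can follow transcription.

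The median rate of all tested genes, averaged over the 2 control libraries, fell in order of time from 0.548% to 0.475%, 0.319% and 0.252%, and in the knockdown from 1.18% to 1.09%, 0.732% and 0.533%. The SD between the 2 libraries of a group was 0.0115 percentage points or less. Between 2.39% and 12.9% of tested genes were listed at a rate of 0 in a library, and Spearman's correlation between the rates of the 2 libraries of a group ran from 0.359 to 0.739 across genes. The single abundance column, in CPM (reads scaled to a common total), had LYZ at 1276, SPI1 at 48.4 and CD33 at 29.8, which are myeloid genes, with MPO at 0.185. T cell markers were at 0.132 or less, and among B cell markers PAX5 was at 36.7 while MS4A1 and CD79A were at 0. The library behind this column is not stated, so no marker could be set against a group.

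The conversion rate of most G1 regulators was higher in the knockdown, as was that of most genes. It was called higher for 7 of the 9 tested members over the whole chase (limma, adjusted p under 0.05), and lower for 0, against 69.6% of all tested genes called higher and 0.172% lower, so the members' share was near that of all genes. Their median difference was 1.21 on the log2 scale against 1.02 for all tested genes. When every library was centred on its own median rate, which took 1.05 log2 off each gene's difference, none of the 9 members passed the test, and 0 did at an unadjusted p under 0.05. The members differed in the shape of their time courses: the rates of CCNE2 and E2F3 fell over the chase in both genotypes, the knockdown means of CDK4 and CCND3 ended at 138% and 104% of their start, and E2F1 began from a high rate in the knockdown and a low one in the control. The plot of rates per library shows these courses.

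**Figure D1:**
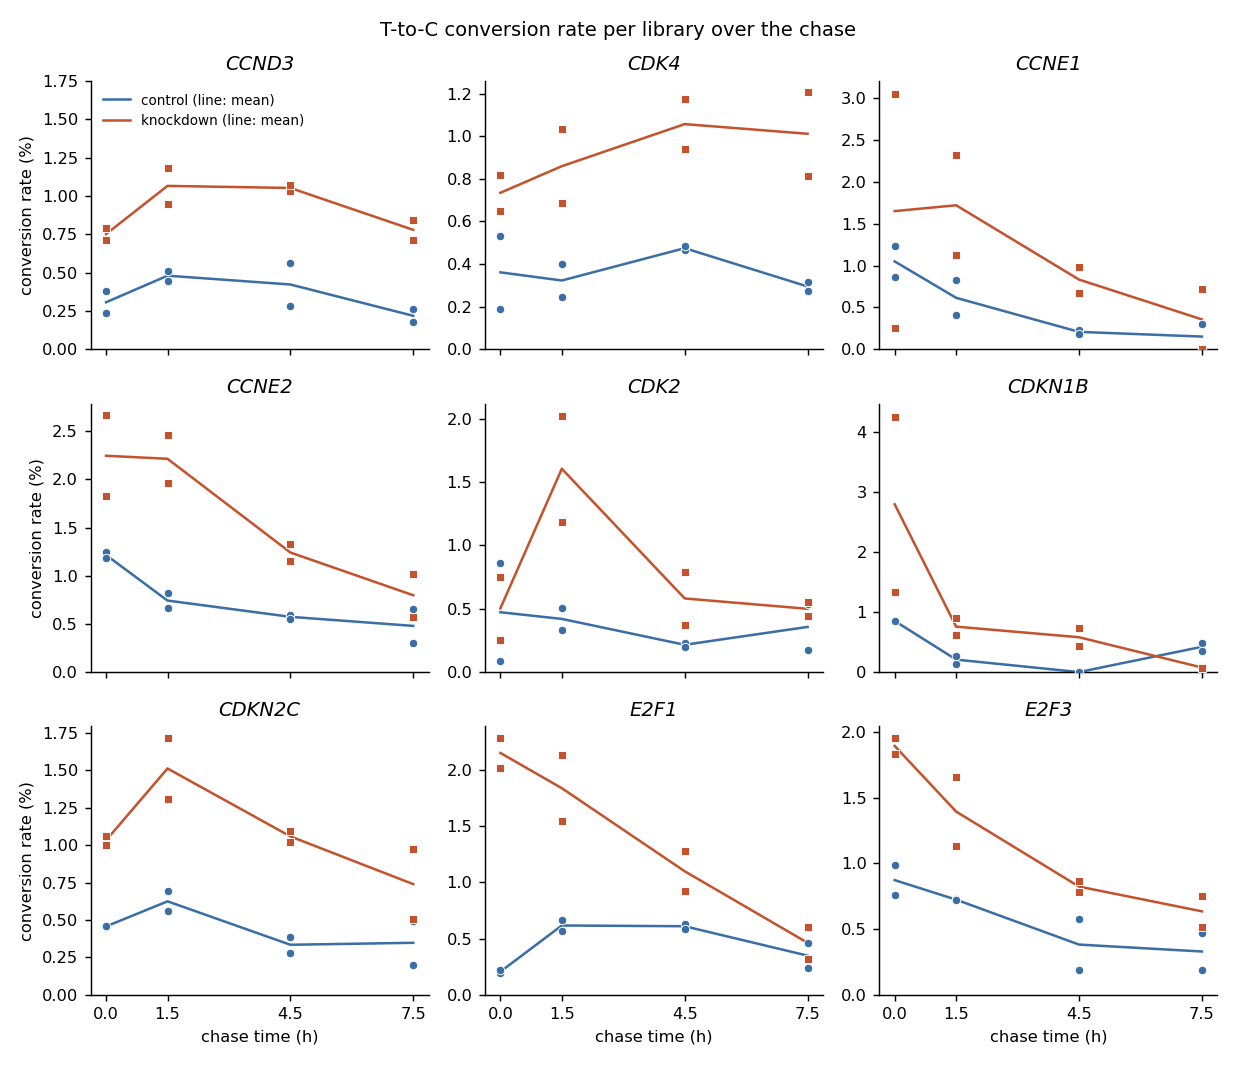
Conversion rate in percent (y axis, a separate scale for each gene) against hours of chase (x axis) for the 9 tested members. Points are single libraries, circles for control and squares for knockdown, and lines join the means of the 2 libraries. At 0 h the knockdown libraries of E2F1 lie at 2.28% and 2.02% and the control libraries at 0.191% and 0.220%.

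CCND3 encodes cyclin D3, the D-type cyclin typical of blood cells. In control libraries its rate was 0.237% and 0.377% at the start, 0.448% and 0.513% by 1.5 h, 0.282% and 0.565% by 4.5 h, and 0.175% and 0.262% by 7.5 h. In knockdown libraries it was 0.710% and 0.794%, 0.948% and 1.18%, 1.03% and 1.07%, and 0.846% and 0.713% at the same times. Every knockdown library lay above every control library, with the lowest knockdown value at 0.710% and the highest control value at 0.565%. The genotype effect, the knockdown less the control across the 4 times, was 1.30 log2 (SE 0.140, adjusted p = 1.27e-06), and relative to the library-wide shift it was 0.25 (SE 0.142, adjusted p = 0.371). In both genotypes the mean was highest at 1.5 h, after the pulse had ended, a step that was not itself tested. By 7.5 h the mean was at 71.3% of its 0 h value in control cells and at 104% in knockdown cells, where the median gene was at 46.0% and 45.1%.

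CCND2 encodes cyclin D2. It had a CPM of 0.106, under the minimum of 1, and was listed at a rate of 0 in 11 of 16 libraries. Its 5 other values were 8.33% in a control library at 0 h, and 1.45%, 0.413%, 4.44% and 11.1% in knockdown libraries at 0, 1.5, 1.5 and 7.5 h. The paired libraries were at 0 for 3 of these 5, the number of T bases behind them is unknown, and no difference was read from them.

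CDK4 encodes the kinase partner of the D cyclins. Its rate in control libraries was 0.534% and 0.189% at the start, 0.399% and 0.247% by 1.5 h, 0.466% and 0.483% by 4.5 h, and 0.272% and 0.318% by 7.5 h. In the knockdown it was 0.819% and 0.650%, 1.03% and 0.686%, 0.941% and 1.17%, and 1.21% and 0.815%. All 8 knockdown libraries were above all 8 control libraries, and the genotype effect was 1.26 log2 (SE 0.176, adjusted p = 1.77e-05), or 0.21 (SE 0.182, adjusted p = 0.595) after centring. The CDK4 mean stood at 81.6% of the 0 h mean at 7.5 h in the control and at 138% in the knockdown. The principal CDK4 transcript in GENCODE 29 has a 3′ UTR of 798 bases with no ATTTA, the pentamer at the core of AU-rich destabilising elements, and a single GGACT, one of the sequence contexts in which m6A is known to be placed. Its window is shown because it holds the only GGACT of this transcript, in capitals (hg38, chr12:57748146-57748170, minus strand, in the 3′ UTR).
CDK4: ttggaagaagGGACTttcctgcaaa
The exons of CDK4 share 1369 bases with TSPAN31 on the opposite strand, a gene at a CPM of 24.3. Whether the authors' counting used strand is not given in the sources used here, so reads of the pair cannot be told apart.

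CCNE2 encodes cyclin E2, an E2F target. Its rate fell in the control, from 1.24% and 1.19% at the start to 0.823% and 0.661% by 1.5 h, 0.595% and 0.552% by 4.5 h, and 0.304% and 0.654% by 7.5 h. In the knockdown it went from 2.67% and 1.82% through 2.46% and 1.97%, then 1.15% and 1.33%, to 0.572% and 1.02%. The genotypes did not overlap at 0, 1.5 and 4.5 h and overlapped at 7.5 h. The genotype effect was 1.03 log2 (SE 0.179, adjusted p = 0.000133), close to the library-wide shift, and −0.023 (SE 0.172) after centring. CCNE2 lies at chromosome 8 and its sequence is not printed. Its 3′ UTR of 1862 bases holds 11 ATTTA pentamers, and 4.35% of tested genes with a 3′ UTR of similar length (0.8 to 1.25 times) held as many or more. CCNE2 exons share 1629 bases with INTS8 on the opposite strand (CPM 30.6).

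CCNE1, which encodes cyclin E1, varied far more between libraries. Control values were 0.862% and 1.24% at the start, 0.407% and 0.823% by 1.5 h, 0.236% and 0.181% by 4.5 h, and 0.305% and 0 by 7.5 h. Knockdown values were 3.05% and 0.250%, 1.12% and 2.31%, 0.677% and 0.988%, and 0 and 0.715%. The genotypes overlapped at 0 and 7.5 h, and the genotype effect of 0.89 log2 (SE 0.618, adjusted p = 0.212) did not pass the test. Its transcript has no ATTTA in a 3′ UTR of 531 bases.

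CDK2, the kinase partner of cyclin E, was also noisy. In the control its rates were 0.860% and 0.084% at the start, 0.333% and 0.506% by 1.5 h, 0.230% and 0.201% by 4.5 h, and 0.175% and 0.537% by 7.5 h. The knockdown had 0.749% and 0.257%, 2.02% and 1.19%, 0.369% and 0.792%, and 0.443% and 0.556%. The groups separated at 1.5 and 4.5 h alone. CDK2 was called higher at 1.01 log2 (SE 0.399, adjusted p = 0.0343), but the call ended without any one of 10 of the 16 libraries, with values of 0.81 to 1.01 and adjusted p up to 0.0779, and after centring the value was −0.036 (SE 0.396). CDK2 exons share 89 bases with PMEL (CPM 2.88) and 565 with AC025162.1 (CPM 0), both on the opposite strand.

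CDKN2C encodes p18, the inhibitor of CDK4 and CDK6. Control rates were 0.453% and 0.461% at the start, 0.557% and 0.692% by 1.5 h, 0.279% and 0.389% by 4.5 h, and 0.495% and 0.2001% by 7.5 h. Knockdown rates were 1.06% and 1.00%, 1.72% and 1.31%, 1.09% and 1.02%, and 0.505% and 0.974%. At each time both knockdown libraries were above both control libraries, most narrowly at 7.5 h, with 0.505% against 0.495%. The genotype effect was 1.22 log2 (SE 0.170, adjusted p = 1.65e-05), or 0.17 (SE 0.167) after centring. As for CCND3, the mean in each genotype was highest at 1.5 h, and at 7.5 h it was at 76.1% of the 0 h mean in the control and 71.6% in the knockdown. Its transcript holds 6 GGACT, and 7.66% of tested genes with a coding transcript had as many or more per kilobase.

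CDKN1B encodes p27, the inhibitor of cyclin-CDK2. Its control rates were 0.846% and 0.858% at the start, 0.140% and 0.274% by 1.5 h, 0 and 0 by 4.5 h, and 0.486% and 0.355% by 7.5 h. Its knockdown rates were 4.26% and 1.33%, 0.899% and 0.614%, 0.434% and 0.726%, and 0.084% and 0.068%. The knockdown libraries were above the control at 0, 1.5 and 4.5 h and below it at 7.5 h, so the time courses crossed. Over the whole chase the genotype effect was 1.21 log2 (SE 0.597, adjusted p = 0.0831) and did not pass. It passed without either control library or either knockdown library of 7.5 h, at 1.45 to 1.53 log2 with adjusted p of 0.0282 to 0.0441. The 3′ UTR of CDKN1B, 1344 bases long, holds 7 ATTTA, and 9.62% of tested genes of similar length held as many or more. The pair shown here (hg38, plus strand, chr12:12721535-12721559 and chr12:12722128-12722152, with ATTTA in capitals) was chosen as an example in which the pentamer is followed by a further T.
CDKN1B, pentamer 3: gataattgctATTTAtttttacaag
CDKN1B, pentamer 7: atactaacttATTTAtgttaaaaga

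E2F1 encodes the activator E2F whose level peaks at the G1 to S boundary. Its control rates were 0.191% and 0.220% at the start, 0.570% and 0.663% by 1.5 h, 0.632% and 0.587% by 4.5 h, and 0.461% and 0.235% by 7.5 h. Its knockdown rates were 2.28% and 2.02%, 2.13% and 1.54%, 0.922% and 1.28%, and 0.322% and 0.603%. At the end of the pulse the knockdown mean was 10.5 times the control mean, and the ratio was 2.98, 1.80 and 1.33 at the later times, where the groups overlapped at 7.5 h alone. The genotype effect over the chase was 1.44 log2 (SE 0.382, adjusted p = 0.00381), or 0.39 (SE 0.378, adjusted p = 0.636) after centring. From 0 to 7.5 h the control mean went to 169% of its start and the knockdown mean to 21.5%. The E2F1 3′ UTR, 1049 bases long, holds 6 ATTTA, overlapping ones counted, and 10.3% of tested genes of similar length held as many or more. In both windows below (hg38, minus strand, chr20:33676157-33676181 and chr20:33676003-33676027), the pentamer in capitals is followed by a second one that shares its last A, and these 2 windows hold 4 of the 6.
E2F1, pentamers 3 and 4: atggagcgttATTTAtttatcgagg
E2F1, pentamers 5 and 6: ggcctgggtgATTTAtttattggga

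E2F3 encodes a second activator E2F. Control rates were 0.987% and 0.759% at the start, 0.727% and 0.721% by 1.5 h, 0.574% and 0.190% by 4.5 h, and 0.190% and 0.469% by 7.5 h. Knockdown rates were 1.83% and 1.95%, 1.66% and 1.13%, 0.782% and 0.866%, and 0.753% and 0.517%. The genotypes did not overlap at any of the 4 times. The genotype effect was 1.02 log2 (SE 0.220, adjusted p = 0.000838) and −0.032 (SE 0.222) after centring. The 7.5 h mean was at 37.7% of the 0 h mean in the control and 33.5% in the knockdown. Its 3′ UTR of 3285 bases holds 9 ATTTA, a number that 38.7% of tested genes of similar length reached or passed. The window shown has the pentamer followed by a further T, as in E2F1 and CDKN1B (hg38, chr6:20492673-20492697, plus strand, ATTTA in capitals).
E2F3: gtaatgccgtATTTAttgtttttaa
CCND3, whose slope passed the test in neither genotype, holds the pentamer as well, 2 times in 1007 bases (hg38, chr6:41935291-41935315, minus strand).
CCND3: gctcattttaATTTAttaattgctt
Among the 12277 tested genes with a coding transcript, 68.8% had at least 1 ATTTA in the 3′ UTR, read on the transcript strand, and 91.4% had a GGACT in the transcript.

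Across the chase as a whole, the members differed in how well the genotype effect was measured more than in its size. The effect was between 0.89 and 1.44 log2 for all 9, and the plot of effects with their intervals shows the median of all tested genes inside every interval. The SE was 0.140 to 0.220 for CCND3, CDKN2C, CDK4, CCNE2 and E2F3, which had a CPM of 9.76 to 89.7, and 0.382 to 0.618 for E2F1, CDK2, CDKN1B and CCNE1, which had 1.96 to 4.58. After centring, 6.05% of all genes were called in either direction and 0 of the 9 members. Their centred values lay between −0.16 (CCNE1) and 0.39 (E2F1), with a median of 0.16 against −0.025 for all tested genes.

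**Figure D2:**
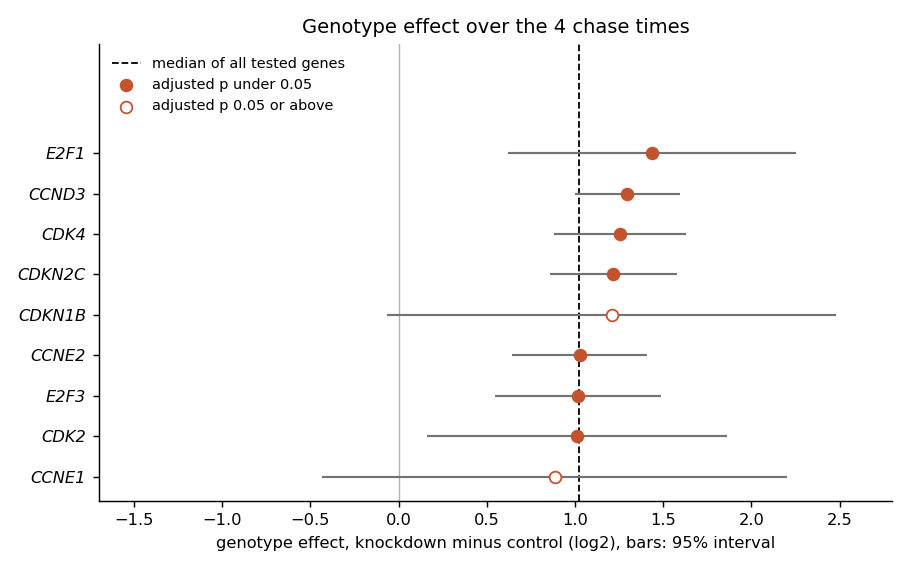
Genotype effect over the chase, knockdown minus control in log2 of the rate (x axis), for the 9 tested members (y axis). Points are estimates, filled where the adjusted p is under 0.05, bars are 95% intervals, and the dashed line is the median of all tested genes at 1.02. CCNE1 and CDKN1B are the open points, and with libraries centred CCNE2, CDK2, E2F3 and CCNE1 turn slightly negative.

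Time by time, E2F1 at the start and CDKN1B late in the chase lay farthest from the library-wide shift. At 0 h, 4 of 9 were called higher, CCND3, CDK4, CDKN2C and E2F1, against 35.6% of all genes. At 1.5 h, 4 were called higher, CCND3, CCNE2, CDK4 and CDKN2C, against 38.9%. At 4.5 h the number was 5, CCND3, CCNE2, CDK4, CDKN1B and CDKN2C, against 38.3%. At 7.5 h CCND3, CDK4 and CDKN2C were called higher, against 33.5%, and CDKN1B was called lower, against 0.308%. With 9 members, none of these shares of higher calls stood clearly apart from the background.

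Complete separation, with both knockdown libraries above both control libraries, was counted as a second description. It was seen for 7 of 9 members at 0 h against 71.1% of all genes, 9 of 9 at 1.5 h against 74.3%, 9 of 9 at 4.5 h against 68.2% and 4 of 9 at 7.5 h against 58.9%. CCND3, CDK4, CDKN2C and E2F3 were separated at every time. For CCND3 and CDK4 every knockdown library also lay above every control library of any time. The share of all genes that did either was not counted, so neither can be called particular to these members.

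The E2F1 difference at 0 h was 3.11 log2 (SE 0.582, adjusted p = 0.00215), above that of 98.0% of tested genes. It kept the call without any single library, with values of 3.02 to 3.19 and adjusted p up to 0.0193. With libraries centred it was 2.06 (SE 0.583, adjusted p = 0.196) and did not pass. At 1.5, 4.5 and 7.5 h it was 1.49 (adjusted p = 0.0616), 0.78 (adjusted p = 0.304) and 0.37 (adjusted p = 0.658).

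CDKN1B differed by 1.44 log2 at the start (adjusted p = 0.111), 1.68 by 1.5 h (adjusted p = 0.0649), 3.62 by 4.5 h (SE 0.665, adjusted p = 0.00166) and −1.89 by 7.5 h (SE 0.665, adjusted p = 0.0464). Both control libraries of 4.5 h are listed at 0, so the size at 4.5 h depends on the pseudocount of 0.05 percentage points, and that call held without any single library. The lower call at 7.5 h ended without any one of 14 of the 16 libraries, at −2.09 to −1.69. Libraries of other times among them left the value at −1.89 and changed only its p-value. The knockdown rates at 7.5 h, 0.084% and 0.068%, are near the pseudocount, so this size depends on it too. The call also ended at a pseudocount of 0.2 (−1.16, limma, adjusted p = 0.105) and without a CPM minimum (adjusted p = 0.0892). After centring the values were 2.53 (adjusted p = 0.15) and −2.84 (adjusted p = 0.0693), and neither passed.

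CCND3 differed by 1.19, 1.07, 1.29 and 1.64 log2 at 0, 1.5, 4.5 and 7.5 h, each past the test. The calls of CCND3 at 4.5 and 7.5 h held without any single library, while at 0 h the call ended without control replicate 1 (0.91) or knockdown replicate 2 (1.12), and at 1.5 h without control replicate 1 (0.98) or knockdown replicate 2 (0.91). CDK4 differed by 1.06, 1.29, 1.07 and 1.60 log2, also past the test at each time. Its call at 0 h ended without any one of 11 libraries, with a low of 0.42 without control replicate 2. Libraries of other times among them left the CDK4 value at 1.06 and changed only its p-value. At 1.5 h it ended without control replicate 2 (0.99) or knockdown replicate 1 (1.01), and at 4.5 h without any library of that time or either knockdown library of 0 h (0.92 to 1.22). At 7.5 h the CDK4 call ended without knockdown replicate 1 alone (1.33, adjusted p = 0.0605). CDKN2C differed by 1.09, 1.21, 1.54 and 1.03 log2, and its 7.5 h call ended without any one of 14 libraries, at 0.47 to 1.03. Here too, libraries of other times left the value at 1.03. The CDKN2C call at 0 h ended without any library of that time (1.06 to 1.13), and at 1.5 h without either control library or knockdown replicate 1 (1.02 to 1.35). CCNE2, at 1.51 and 1.05 log2 where it was called, lost the call at 1.5 h without knockdown replicate 1 (1.36) and at 4.5 h without any library of that time (0.94 to 1.15). With libraries centred, no member was called at any time (limma; at an unadjusted p under 0.05, 1, 0, 1 and 2 in order of time), against 0.548%, 0.511%, 0.727% and 1.10% of all genes called in either direction.

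**Figure D3:**
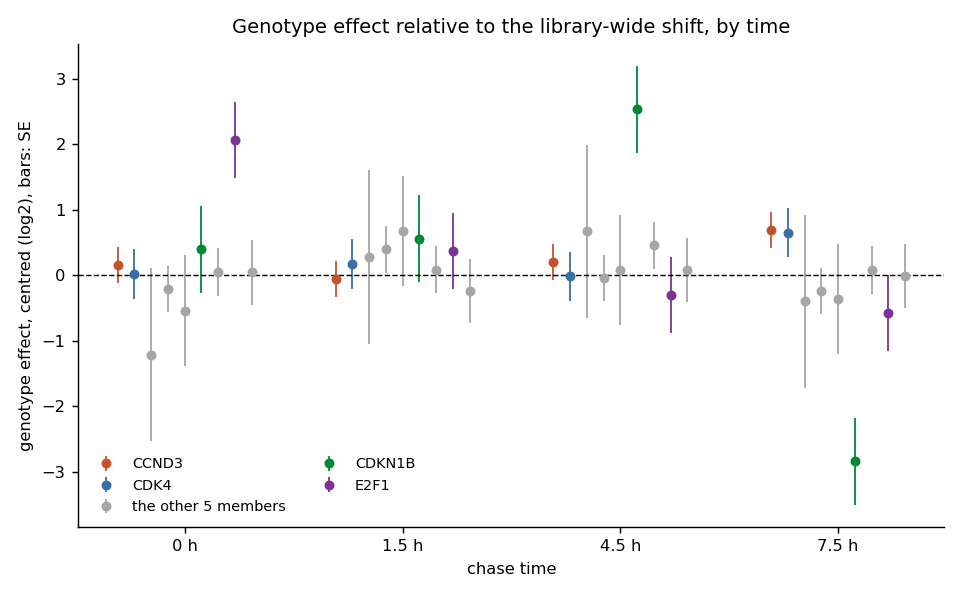
Genotype effect at each chase time with every library centred on its median, in log2 (y axis), at 0, 1.5, 4.5 and 7.5 h (x axis). Points are the 9 tested members, with CCND3, CDK4, CDKN1B and E2F1 in colour and the other 5 in grey, bars are SE, and the dashed line marks the library-wide shift. E2F1 at 0 h (2.06) and CDKN1B at 4.5 h (2.53) and 7.5 h (−2.84) lie farthest from the line, and none of the points passed the test.

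Loss of label over time was measured as the slope of the log2 rate per hour within a genotype. In control cells the rate of CCNE1, CCNE2 and E2F3 fell, which is 3 of 9 members against 34.4% of all genes, and none rose, against 3.45%. CCNE1 fell by 0.40 log2 per hour (SE 0.149, adjusted p = 0.0432), E2F3 by 0.20 (SE 0.0551, adjusted p = 0.00929) and CCNE2 by 0.16 (SE 0.0422, adjusted p = 0.0063). On this scale these slopes correspond to a halving every 2.49 h, 5.02 h and 6.15 h, times that also include dilution by new unlabelled RNA. The median slope of the members was −0.094 against −0.11 for all tested genes.

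The other control slopes did not pass: CDKN1B −0.15, CDKN2C −0.094, CCND3 −0.071, CDK2 −0.029, CDK4 0.0038 and E2F1 0.041. The CCNE1 call ended without any one of 9 libraries, with slopes of −0.42 to −0.27, or an unchanged −0.40 for the knockdown libraries among them. It also ended at a pseudocount of 0.01 (−0.55, adjusted p = 0.0571) or 0.2 (−0.26, adjusted p = 0.0504), so its halving time depends on the pseudocount. Without a CPM minimum (adjusted p = 0.0803) or without the variance trend (adjusted p = 0.0555) CCNE1 did not pass either. Those of CCNE2 (−0.12, adjusted p = 0.0608) and E2F3 (−0.16, adjusted p = 0.0682) each ended without control 7.5 h replicate 1, where CCNE2 and E2F3 had their lowest rates of the chase. Over the 3 times from 1.5 h on, CCND3 was the 1 member that passed, with a slope of −0.17 (limma, adjusted p = 0.0316). CCNE1 (−0.37, adjusted p = 0.193), E2F3 (−0.19, adjusted p = 0.143) and CCNE2 (−0.11, adjusted p = 0.206) then did not pass.

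In knockdown cells 4 of 9 members fell, against 37.9% of all genes, and 0 rose, against 4.06%. CDKN1B fell by 0.51 log2 per hour (SE 0.153, adjusted p = 0.0136), E2F1 by 0.29 (SE 0.0824, adjusted p = 0.0104), CCNE2 by 0.21 (SE 0.0422, adjusted p = 0.000875) and E2F3 by 0.20 (SE 0.0551, adjusted p = 0.00735). The halving times were 1.97 h, 3.48 h, 4.78 h and 4.92 h, and the median slope was −0.20 against −0.13 for all tested genes. CCNE1 had −0.34 (adjusted p = 0.0822), and it passed without knockdown 0 h replicate 2 (−0.51) or 7.5 h replicate 2 (−0.48). The slopes of CDKN2C, CDK2, CCND3 and CDK4 were −0.093, −0.069, −0.0052 and 0.058 and did not pass. At a pseudocount of 0.01 the CDKN1B slope was −0.57 and did not pass (adjusted p = 0.0639). From 1.5 h on, CDKN1B (−0.44, adjusted p = 0.114) and E2F3 (−0.18, adjusted p = 0.148) did not pass. The E2F1 call ended without knockdown 7.5 h replicate 1 (−0.23, adjusted p = 0.077), and that of CDKN1B without knockdown 0 h replicate 1 (−0.43), 7.5 h replicate 1 (−0.50) or 7.5 h replicate 2 (−0.48).

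**Figure D4:**
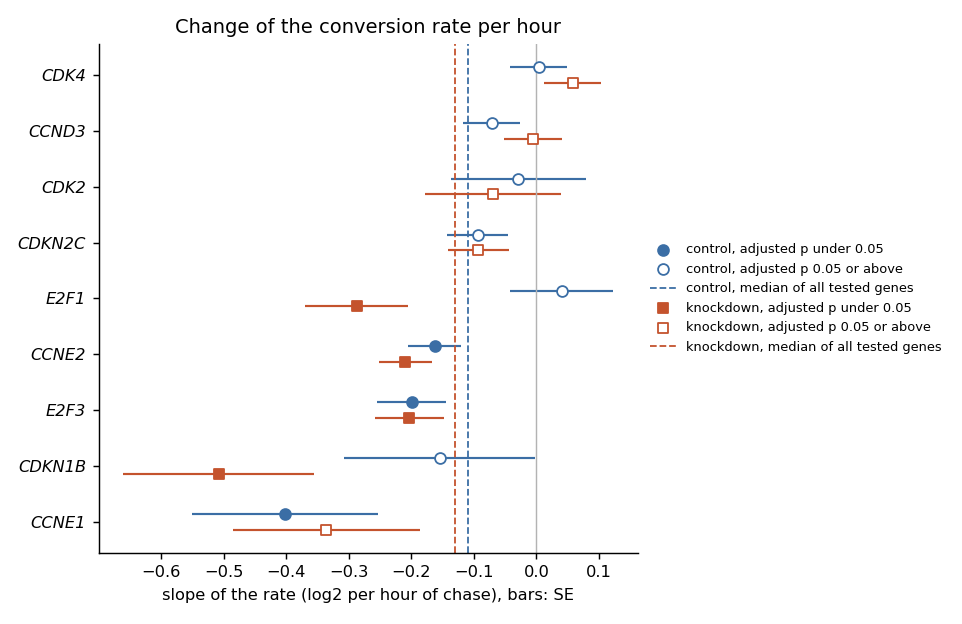
Slope of the rate in log2 per hour of chase (x axis) for the 9 tested members (y axis). Circles are control and squares knockdown, filled where the adjusted p is under 0.05, bars are SE, and dashed lines are the medians of all tested genes at −0.11 and −0.13. E2F1 is at 0.041 in control and −0.29 in knockdown cells, and the CCND3 and CDK4 slopes turn or stay positive with libraries centred.

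Relative to the median gene, CDK4 and CCND3 were the members called higher. The centred slope was positive for 5 of 9 members in the control and for 4 in the knockdown. E2F1 had the largest in the control, at 0.18, and did not pass (adjusted p = 0.131). Centred slopes were 0.14 for CDK4 in the control (SE 0.0482, adjusted p = 0.0417), 0.21 for CDK4 in the knockdown (SE 0.0482, adjusted p = 0.00416) and 0.14 for CCND3 in the knockdown (SE 0.0457, adjusted p = 0.027). That is 1 of 9 members called higher in the control against 17.6% of all genes, and 2 of 9 in the knockdown against 17.7%, and none was called lower, against 9.46% and 8.62%. The control call of CDK4 ended without any one of 7 libraries (0.085 to 0.16, or an unchanged 0.14 for the knockdown libraries among them). That of CCND3 ended without either knockdown library of 0 h (0.12 and 0.14) or knockdown 7.5 h replicate 1 (0.15).

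Whether the loss of label differed between genotypes was tested directly as knockdown slope minus control slope. No member and none of the 16241 genes passed (limma, adjusted p under 0.05), while 1 member and 1269 genes had an unadjusted p under 0.05. That member was E2F1, whose slope difference was −0.33 log2 per hour (SE 0.116, 95% interval −0.57 to −0.081, adjusted p = 0.508). It lay between −0.41 and −0.27 when single libraries were left out. CDKN1B had −0.35 (SE 0.216, interval −0.81 to 0.10, adjusted p = 0.742). For CCNE2 the difference was −0.047 (interval −0.17 to 0.080), for E2F3 −0.0038 (−0.17 to 0.16), for CDKN2C 0.00089 (−0.14 to 0.15), for CDK4 0.054 (−0.083 to 0.19) and for CCND3 0.066 (−0.071 to 0.20). For CCNE1 it was 0.066 (−0.38 to 0.51) and for CDK2 −0.040 (−0.36 to 0.28). Except for E2F3, the interval of every member reached a difference as large as a slope of its own. The lack of a call therefore does not show that the slopes were equal.

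Around these members, 33 other regulators of the G1 to S step were followed, of which 30 were tested: E2F2 had a CPM of 0.899, and CDKN2A and CDKN2B were at 0. Their genotype effect was called higher for 27 and lower for 0, with a median of 1.01, again beside 69.6% of all genes. That share of all genes is not matched for abundance. The smallest p-values belonged to CDK6 (1.19), the alternative partner of cyclin D3, CDK1 (1.54), the mitotic kinase, SKP1 (0.94), a subunit of the ubiquitin ligase that degrades p27, and E2F7 (1.52), a repressor E2F. After centring, CDK1 (0.49, adjusted p = 0.0247) and E2F6 (0.73, adjusted p = 0.0229) were higher and CDC25A (−0.70, adjusted p = 0.0291) was lower, 3 of 30 against 6.05% of all genes.

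In control cells the rate of 15 of these 30 fell, against 34.4% of all genes, and that of 2, SKP1 (0.098) and E2F4 (0.18), rose, against 3.45%. These shares of all genes are not matched for abundance either. At a CPM of 20 or more, 3061 of 5511 genes were called for the control slope in either direction. The leading falls were LIN9 (−0.40), a subunit of the DREAM and MuvB complexes, CDK6 (−0.24), CUL1 (−0.18) and FBXW7 (−0.24), the last of which recognises cyclin E for degradation. In knockdown cells 16 fell, against 37.9%, and 2 rose, SKP1 (0.12) and CKS1B (0.14), against 4.06%. In these cells CUL1 (−0.28), CDK6 (−0.26), FBXW7 (−0.33) and LIN9 (−0.32) led again. The 2 kinase partners of cyclin D3 thus had different courses: CDK6 fell by 0.24 and 0.26 log2 per hour in control and knockdown, and CDK4 had slopes of 0.0038 and 0.058, a difference between genes that was not itself tested.

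The 20 E2F target mRNAs of DNA replication were all tested. All 20 were called higher in the knockdown, against 69.6% of all genes, with a median of 1.10 against 1.02. The shares of all genes are again not matched for abundance. At a CPM of 20 or more, 5164 of 5511 genes were called for genotype in either direction. They were led by RRM2 (1.46), a subunit of ribonucleotide reductase, GMNN (1.47), MCM3 (1.17) and MCM10 (1.47). After centring 2 of 20 were called, both higher, RRM2 (0.41, adjusted p = 0.0194) and GMNN (0.42, adjusted p = 0.0438), against 6.05% of all genes in either direction. Their rates fell for 7 in the control, against 34.4%, led by GMNN (−0.36), RRM2 (−0.21), POLA1 (−0.20) and MCM10 (−0.19), and for 9 in the knockdown, against 37.9%, led by GMNN (−0.34), POLA1 (−0.27), RRM2 (−0.21) and MCM10 (−0.23). TYMS (0.11) and TK1 (0.16) rose in the control, against 3.45%, and TK1 (0.11) in the knockdown, against 4.06%.

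Over the 8 group means of the centred log2 rate, Pearson's r between members ran from −0.90 (CDK4 with E2F3) to 0.85 (CCND3 with CDK4). CCND3 also ran with CDKN2C (0.78) and against E2F3 (−0.81), CDKN1B (−0.75) and CCNE2 (−0.73). CCNE2 and E2F3 ran together less closely (0.41), and E2F1 lay between −0.34 and 0.35 with every other member. The pairs named are a selection, and the members did not fall into 2 clear groups. These are descriptions over 8 points that share libraries and time points. Among 5424 genes that reached a CPM of 20 and had no rate of 0, the courses most like that of CCND3 were MED30 (r = 0.99), ATP6V0E1 (0.98) and UBXN4 (0.98). Those most like CDK4 were COX7CP1 (0.995), RNASET2 (0.990) and PTS (0.988). COX7CP1 is a processed pseudogene of COX7C, and reads of the parent gene could be counted there, so its entry is uncertain.

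The number of ATTTA pentamers in the 3′ UTR went with the slopes of tested genes in general, as a description. Median control slopes were −0.074 for 3829 genes with 0, −0.13 for 4878 with 1 to 4 and −0.17 for 3570 with 5 or more, and median knockdown slopes were −0.091, −0.16 and −0.20. The median 3′ UTR length in these classes was 317, 967.5 and 3051 bases, so the count and the length cannot be told apart here. Among the tested members the number ran from 0 in CCNE1 and CDK4 to 11 in CCNE2, and its part in their slopes was not tested.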

How the data were processed

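SLAM-seq conversion rates of 16 THP-1 libraries were analysed. The deposited table gives 1 fraction between 0 and 1 per gene and library, read from the values and the assay as the T-to-C conversion rate. It also has 1 CPM column, per the file headers, whose library is not stated and which served to filter genes and to set the variance trend. CASAVA, HISAT2 2.1.0 and hg38 were used, per the submitters' processing notes, while the rate caller, variant masking and annotation were not given in the sources used here. T bases per gene are not in the table, so depth is unknown and no counting interval is given. No library without 4sU was used here.

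Blank symbols were filled from the Ensembl IDs, 41027 of 41255. Genes were kept at a CPM of 1 or more where any library had a rate over 0, and fitted on log2(rate in percent + 0.05) with limma 3.58.1 in R 4.3.3, letting the variance follow log2(CPM + 0.01), with Benjamini-Hochberg adjusted p-values over all 16241 genes at 0.05. A fold change on this scale understates the change of low rates. The genotype effect took time as a factor, effects at each time came from 8 group means, and slopes from a line per genotype. Each was repeated with libraries centred on their median log2 rate. The fits were checked on simulated data. Alternatives were pseudocounts of 0.01 and 0.2, no CPM minimum or 20, no variance trend, the replicate number as a block, slopes from 1.5 h, and each library left out. Centred effects at each time were added after the data were seen.

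The members and lists were chosen with earlier results of these data known. All 10 members are named, with ALKBH5, up to 4 genes per pathway list by smallest p (other regulators of the G1 to S step, E2F targets of DNA replication), and the 3 genes most like each of the 2 members with the highest CPM among those above 0 in every library. Genes singled out beyond this rule (those called after centring, those that rose, and E2F2, CDKN2A and CDKN2B) were chosen after their values were seen. Motifs were counted in GENCODE 29 principal transcripts (GRCh38, the hg38 build), with 16088 of 16241 tested genes matched.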

Additional observations from a re-analysis of the deposited data

How the results depend on the processing

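With libraries centred, the genotype effect had 982 genes (746 of them lower) and 0 members past the test, and by time 89, 83, 118 and 179 genes and 0 members. Among values past the test under any setting, centring turned the sign of the genotype effect of E2F3 (−0.032), CDK2 (−0.036) and CCNE2 (−0.023), at 0 h of CCNE2 (−0.21), at 1.5 h of CCND3 (−0.052), at 4.5 h of CDK4 (−0.017) and CCNE2 (−0.038) and at 7.5 h of CCNE2 (−0.24). It also turned the control slopes of CCND3 (0.064) and CDKN2C (0.042) and the knockdown slope of CCND3 (0.14). None of the members whose slope had fallen was called after centring: 1 member, CDK4, was called higher in control and 2, CDK4 and CCND3, in knockdown, where 4267 genes were called. With a CPM minimum of 20, 5511 genes and 4 members were tested. Of these, 5164 genes and all 4 members were called for genotype. For the control slope 3061 genes and 1 member were called, and for the knockdown slope 3435 and 1. Fewer genes were called than at a minimum of 1, but they were a larger share of those tested. Without a CPM minimum 37510 genes and 10 members were tested. The members called were then 2 at 0 h, 3 at 4.5 h, 2 at 7.5 h and 3 for the centred control slope. The centred genotype effect had 5781 genes and the centred knockdown slope 1653. A pseudocount of 0.2 gave 1668 genes for the centred genotype effect and 0 members for the centred control slope, which was also 0 without the variance trend, where the slope difference had 1 gene. From 1.5 h on, the control slope had 3074 genes and 1 member, the knockdown slope 4007 and 2, and the centred slopes 1782 and 1647 genes and 0 members in each. CDK4 then had a control slope of −0.014, and centred control slopes were −0.000179 for E2F1 and −0.033 for CCND3. The cause of these changes was not tested. Leaving out 1 library gave 6 to 8 members for genotype, 1 to 4, 1 to 5, 3 to 6 and 2 to 3 at the 4 times, 2 to 3 for the control and 2 to 5 for the knockdown slope, 0 to 1 and 1 to 2 when centred, and 0 for the slope difference. Genes called then were 3331 to 6430, 3737 to 6943, 4080 to 6912 and 3671 to 5563 by time, and 0 to 2 for the slope difference. The control slope of CDK4 ran from −0.048 to 0.045 and the knockdown slope of CCND3 from −0.030 to 0.024. The replicate numbers share only a number: deviations of same-numbered libraries correlated at −0.0239 to 0.0396 over 28 pairs of groups. With them as a block, 2 members were called at 7.5 h in place of 4, since CDKN1B (adjusted p = 0.0565) and CDKN2C (0.0582) missed the threshold, and so did the control slope of CCNE1 (0.0515). The 45 member values that no setting called, not listed above, turned sign in 102 of 1006 alternative values.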
